A study of Mus musculus with 16 samples.

Results

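Day 14 after partial hepatectomy was compared with day 0 in the livers of mice that received canertinib, on 4 of the 16 expression arrays of a mouse study of liver regeneration. The 4 arrays were chosen by their labels: day 14 and day 0 of MET_KO_canertinib, and day 14 and day 0 of MET_FLOX_canertinib, each day 14 array paired with the day 0 array of its own arm. MET_KO_canertinib, called the knockout arm here, combined canertinib with loss of exon 16 of Met, brought about by a recombinase that tamoxifen activates. MET_FLOX_canertinib, called the flox arm here, received the same drug and is labelled as floxed. Canertinib was mixed into the diet with an intended dose of 80 mg/kg. The other arms, MET_KO and MET_FLOX, went without the drug. All 16 arrays carry the same genotype entry, Metff/ff:ERCre+/+, and the same strain background, 129SV/C57BL/6, so the Cre allele is shared by the flox arms too. Age and sex are not given in the labels. Each arm had 1 array at each of days 0, 2, 7 and 14, made from 6 ug of total liver RNA, and nothing in the labels says whether it holds 1 animal or several. The spread behind the p-values below is therefore the departure of the arms of each diet from a parallel course over the days. It holds real differences between the courses of the arms as well as spread between arrays, and no replicate of an arm at a day separates them.

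After part of the liver is removed, the remaining hepatocytes divide and the organ returns towards its former mass. MET, the receptor of hepatocyte growth factor, and EGFR, the receptor of epidermal growth factor and related ligands, are the main receptor kinases through which hepatocytes receive growth signals. Canertinib inhibits EGFR and its relatives by binding their kinase domain irreversibly. Interferons, which later paragraphs turn on, act through STAT and IRF factors to switch on a large set of defence genes, among them the guanylate-binding proteins and the immunity-related GTPases. Day 0 and day 14 livers of both arms are labelled with the drug, so the comparison is one of time within drug-fed arms, with MET also deleted in the knockout arm.

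The values are MAS5 signal intensities, a linear brightness per probe set, and they were tested as log2 of the signal plus 16. The tissue label was checked with 5 hepatocyte genes. Alb, which encodes albumin, gave 80625 in the knockout arm and 110032 in the flox arm at day 14, against 56977 in the knockout arm and 99691 in the flox arm at day 0. None of Alb, Apoa1, Cps1, Hnf4a and Ttr was called, and the lowest signal of any of them on the 4 arrays was that of Hnf4a at day 14 in the knockout arm, 10497. Median signals were 265.1 (knockout arm) and 248 (flox arm) at day 14, and 244 (knockout arm) and 251.4 (flox arm) at day 0, and all 8 canertinib arrays lay between 244 and 265.1. The arms without drug at days 0, 2 and 7 had medians of 156.4 to 188.7. Day 14 minus day 0 in those arms thus crosses from one set of arrays to the other, and whether the drug arms changed differently cannot be told apart from that step. The 3'-to-5' signal ratio of Gapdh, a sign of RNA integrity that is higher where RNA is shorter, was 1.13 (knockout arm) and 2.24 (flox arm) at day 14, and 0.95 (knockout arm) and 1.08 (flox arm) at day 0. The flox arm's day 14 array had the highest ratio of the 16. Its part in the results was not tested.

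At day 14 a small set of genes had moved the same way in both arms. Interferon-induced genes such as Gbp6, Igtp and Usp18 fell, as did single hepatocyte genes such as Me1, Akr1c19, Gsta3 and Slc10a1, while Cxcl14, Ltf, Sgk1 and Itih2 were among those that rose. Of 13575 genes tested, 13 were called higher (0.0958%) and 31 lower (0.228%) by limma, in a two-sided test of the mean change of both arms. A gene was called where its p, adjusted by the method of Benjamini and Hochberg, was below 0.05. All 44 moved the same way in both arms and by at least 1 on the log2 scale in each. Without adjustment, 863 genes were higher (6.36%) and 862 lower (6.35%) at p below 0.05, 1725 in all where 679 would be met by chance. The median change over all genes was 0.02, with 0.04 in the knockout arm and 0.03 in the flox arm.

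The number of calls rested on single arrays. Where an arm's day 0 or day 14 array is left out, that day rests on the other arm's array alone. Such a fit, here and below, no longer tests the mean change of both arms. Without the knockout arm's day 0 array no gene was called (1282 at an unadjusted p below 0.05), and without the flox arm's day 14 array 676 were, the 44 among them. Without the knockout arm's day 14 array there were 14 calls, 6 of them among the 44, and without the flox arm's day 0 array 10, with 7 among the 44. The spread in the fit came from all 16 arrays, with 3 of 6 residual degrees of freedom from canertinib arrays and 3 from arrays without drug, and with the 8 canertinib arrays alone no gene was called (1189 at an unadjusted p below 0.05).

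Fold changes without a test gave a wider picture. With a change of at least 1 on the log2 scale in both arms, and with the brighter array of each pair above its own median, 151 genes were higher (1.11%) and 155 lower (1.14%). Across genes, the changes of the arms were weakly related, with a Pearson correlation of 0.0806 and a Spearman correlation of 0.0760 over 13575 genes, which are not independent and share 4 arrays. Regardless of brightness, 1153 genes were up by at least 1 in the knockout arm and 936 in the flox arm, and the 199 in common were 17.3% of the knockout arm's genes and 21.3% of the flox arm's. Down by that much were 1270 genes in the knockout arm and 810 in the flox arm, and the 177 in common were 13.9% and 21.9% of these lists. Most genes past that size in either arm were thus not past it in the other. Each of these shares was still above the share of all 13575 genes past that size in the other arm. The changes spread more widely in the knockout arm, with an SD over genes of 0.898 against 0.729 in the flox arm.

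**Figure D1:**
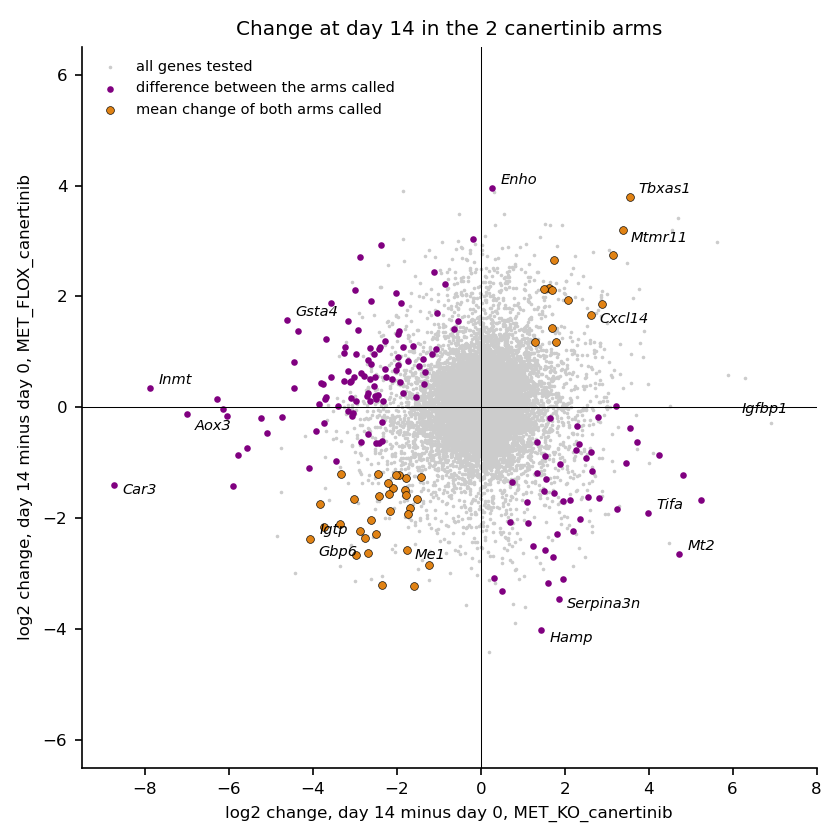
Log2 change from day 0 to day 14 of each of 13575 genes, in MET_KO_canertinib on the x axis and in MET_FLOX_canertinib on the y axis, 1 array per arm and day. Orange points are the 44 genes called for the mean change of both arms, which all lie in the lower left or upper right corner, and purple points are the 148 called for a difference between the arms, most of them far from 0 along the x axis.

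Genes that interferons induce made up the clearest group among the falls. Of 21 genes on an interferon list 17 were measured, and 5 of the 17 fell (0.228% of all genes were called lower), none rose, 14 were lower and 0 higher at an unadjusted p below 0.05 (6.35% lower over all genes), and 15 were lower in both arms. The median change of the list was -1.64, against 0.02 over all genes, with -2.04 in the knockout arm and -1.12 in the flox arm. The 5 that fell were Gbp3, Igtp, Usp18, Ifit1 and Iigp1. Another 8 genes called lower are also known to be induced by interferons and were picked out after their values were seen: Gbp6, Rtp4, Trim12c, Xaf1, Irgm1, Irgm2, Phf11d and Parp12. The falls of these 13 ranged from -1.65 to -3.22, and their adjusted p from 0.0132 to 0.0360. The list's 5 calls became 0 without the knockout arm's day 0 array, 1 without its day 14 array, 1 without the flox arm's day 0 array and 10 without its day 14 array.

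Gbp6, a guanylate-binding protein of cell-autonomous defence, gave 86.2 in the knockout arm and 148 in the flox arm at day 14, against 1701 in the knockout arm and 836 in the flox arm at day 0. Both day 14 signals lay far under both day 0 signals, and under their array medians. On the log2 scale Gbp6 fell by 3.22 with a standard error of 0.43 (adjusted p = 0.0179), the largest fall among the genes called. Errors given after log2 changes are standard errors of the fit. Gbp3, its relative, gave 97.8 in the knockout arm and 174.5 in the flox arm at day 14, against 1601 in the knockout arm and 619 in the flox arm at day 0. The days did not overlap, and Gbp3 fell by 2.78 ± 0.44 (adjusted p = 0.0310), with changes of -3.83 in the knockout arm and -1.74 in the flox arm. The difference between those changes, -2.09 ± 0.64, was not called (adjusted p = 0.175).

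The immunity-related GTPases, which attack the vacuoles of intracellular microbes, were lower at day 14 in both arms. Igtp gave 789 in the knockout arm and 1094 in the flox arm at day 14, against 5420.0 in the knockout arm and 5686 in the flox arm at day 0. Its day 14 arrays differed little from each other and lay well below the day 0 arrays, and it fell by 2.56 ± 0.26 with the smallest adjusted p of the comparison, 0.0132. Iigp1, the brightest gene of the group, gave 5774 in the knockout arm and 9532.5 in the flox arm at day 14, against 24556 in the knockout arm and 26066 in the flox arm at day 0. It fell by 1.77 ± 0.29 (adjusted p = 0.0360) and was still well above the array medians at day 14. Irgm1 fell by 1.88 (adjusted p = 0.0149) and Irgm2 by 1.75 (adjusted p = 0.0209).

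Usp18, a protease that strips the ubiquitin-like protein ISG15 from its targets and restrains interferon receptor signalling, gave 442 in the knockout arm and 746.5 in the flox arm at day 14, against 3356 in the knockout arm and 3549 in the flox arm at day 0. It fell by 2.55 ± 0.32 (adjusted p = 0.0149), with no overlap between the days. Ifit1, which binds foreign RNA and blocks its translation, gave 492 in the knockout arm and 565 in the flox arm at day 14, against 3109 in the knockout arm and 2358 in the flox arm at day 0. Again the days stood apart, and Ifit1 fell by 2.33 ± 0.33 (adjusted p = 0.0209). Rtp4, an interferon-induced transmembrane protein, gave 342 in the knockout arm and 830.0 in the flox arm at day 14, against 4714 in the knockout arm and 3747 in the flox arm at day 0. It fell by 2.94 ± 0.48 (adjusted p = 0.0360). Trim12c, of the tripartite motif family of antiviral proteins, fell by 2.82 ± 0.37 (adjusted p = 0.0155).

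Irf7, the factor that drives late interferon genes, was not called, with 1793 in the knockout arm and 1714 in the flox arm at day 14, against 8247 in the knockout arm and 6856 in the flox arm at day 0. For Irf7 the log2 change was -2.09 ± 0.43 (adjusted p = 0.0856). It is outside the rule for naming genes and was chosen after its values were seen. B2m, the light chain of class I antigen presentation, gave 19614 in the knockout arm and 19065 in the flox arm at day 14, against 37194 in the knockout arm and 45884 in the flox arm at day 0. Its day 14 signals were lower than both at day 0 (-1.09 ± 0.25), and it too missed the threshold (adjusted p = 0.102). Cxcl9, a chemokine that interferon gamma induces, gave 32.0 in the knockout arm and 38.6 in the flox arm at day 14, against 1289 in the knockout arm and 142 in the flox arm at day 0. For Cxcl9 the log2 change was -3.15 ± 0.79 (adjusted p = 0.130).

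At days 2 and 7 the signals of the 13 interferon-induced genes were already under those of day 0 in both canertinib arms. The median change of the 13 interferon-induced genes was -1.61 at day 2, -2.20 at day 7 and -2.39 at day 14, 3 values that share the day 0 arrays. In the test of day 2 against day 0 none of the 13 was called (adjusted p from 0.0689 to 0.467), and in that of day 7 against day 0 5 were. Gbp6 gave 473 at day 2 and 143 at day 7 in the knockout arm, and 224 at day 2 and 191 at day 7 in the flox arm. The arms without drug had low day 2 signals as well, with 11 of the 13 genes lower than at day 0 in both of those arms and a median change of -1.25, within 1 array set. For Igtp the day 2 signals there were 783 in MET_KO and 1143 in MET_FLOX, and for Gbp6 188 in MET_KO and 167 in MET_FLOX, against day 0 signals for Gbp6 of 658 in MET_KO and 1003 in MET_FLOX. Of the 13 genes, all but Gbp6 had both canertinib day 0 signals above both day 0 signals without drug, which lie in the other array set. For Usp18 the day 0 signals without drug were 1082.5 in MET_KO and 1276.5 in MET_FLOX. At day 7 none of the 13 was lower in both arms without drug, and the median change of the 13 there was 0.62. Day 14 and day 0 without drug lie in different array sets. The median change between them was -0.14 for the interferon list and -0.73 for the 13 genes, and Igtp gave 1913 in MET_KO and 1834 in MET_FLOX at day 14, against 2766 in MET_KO and 3518 in MET_FLOX at day 0. None of the 13 genes was called for a difference between the canertinib arms.

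**Figure D2:**
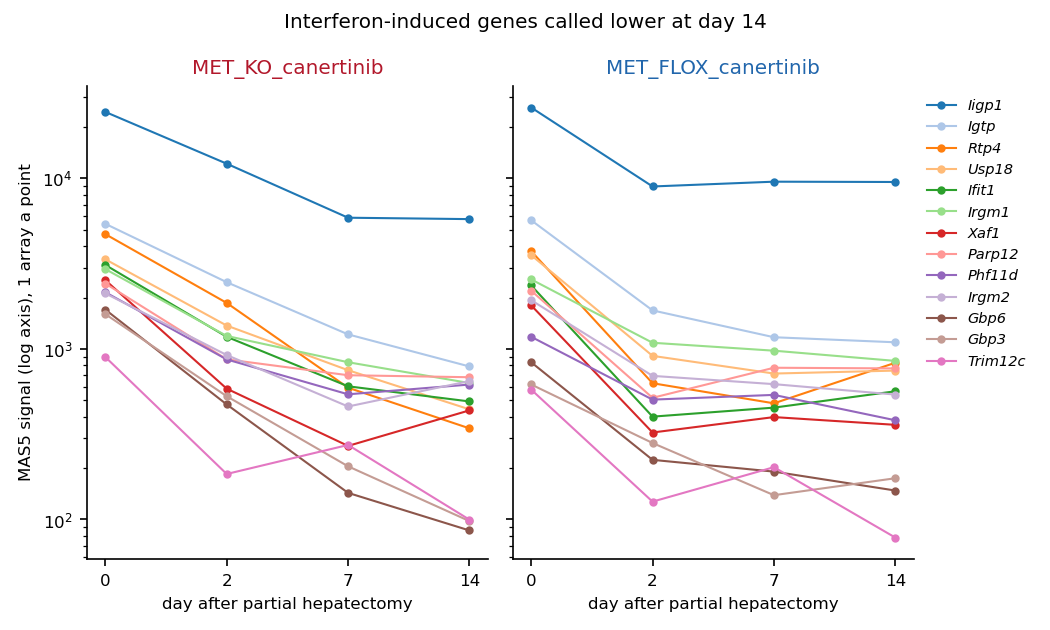
MAS5 signal on a log axis, against the day after partial hepatectomy, of the 13 interferon-induced genes called lower at day 14, in MET_KO_canertinib (left) and MET_FLOX_canertinib (right), 1 array a point, with the days evenly spaced. Each line has its highest point at day 0, and in both panels Iigp1 is the brightest gene throughout.

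Promoter letters are shown for 3 of the interferon list genes that were called lower. All 3 carry the element through which type I interferon acts, here written GAAANNGAAA and searched on both strands. Irgm1, Irgm2 and Trim12c, called but not on the list, also held a match and are not shown. Sequences are from RefSeq on build GRCm38.p6, plus strand, the 150 bases before the start site, with each match in capitals: Ifit1 at chr19:34640739-34640888, Gbp3 at chr3:142559894-142560043 (1 of 2 start sites listed) and Igtp at chr11:58199406-58199555.
Ifit1: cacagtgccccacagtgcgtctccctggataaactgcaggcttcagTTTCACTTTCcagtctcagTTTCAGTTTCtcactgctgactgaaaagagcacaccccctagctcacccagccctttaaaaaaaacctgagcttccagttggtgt
Gbp3: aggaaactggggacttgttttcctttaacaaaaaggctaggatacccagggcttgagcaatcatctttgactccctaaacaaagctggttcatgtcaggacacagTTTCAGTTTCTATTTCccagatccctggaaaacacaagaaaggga
Igtp: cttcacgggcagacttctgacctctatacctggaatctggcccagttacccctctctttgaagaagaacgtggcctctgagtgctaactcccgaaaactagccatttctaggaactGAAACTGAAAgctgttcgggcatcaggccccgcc
Ifit1 has 2 matches, Gbp3 has 2 that overlap each other, and Igtp has 1. Over windows from 250 bases before to 50 after the start site, 7 of 14 interferon list genes with a sequence held a match (50%), as did 6 of 27 genes called lower (22.2%), 2 of 12 called higher (16.7%) and 406 of 10923 genes tested (3.72%). All 6 of the genes called lower with a match were among the 9 interferon-induced ones with a sequence, and 0 of the 18 others held it. The element of interferon gamma, TTCNNNGAA, also searched on both strands, was found in 4 of 14 list genes (28.6%), 6 of 27 called lower (22.2%), 2 of 12 called higher (16.7%) and 903 of 10923 tested (8.27%). Of the genes called lower, 2 of the 9 interferon-induced ones and 4 of the 18 others held it, the same share. These counts describe letters in a window and not bound sites.

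The 18 other genes that fell included the hepatocyte genes Me1, Akr1c19, Gsta3 and Slc10a1. No gene was called lower of 17 on a list of xenobiotic metabolism (6 at an unadjusted p below 0.05) or of 20 on a list of fatty acid oxidation (likewise 6). Over all genes, 6.35% were lower at that unadjusted p. Me1, the malic enzyme that supplies NADPH for fatty acid synthesis, gave 2770.5 in the knockout arm and 1880.5 in the flox arm at day 14, against 9464.5 in the knockout arm and 11335 in the flox arm at day 0. All day 14 signals lay under all day 0 signals, and Me1 fell by 2.17 ± 0.31 (adjusted p = 0.0209). The course was stepwise in both arms, with 5463 at day 2 and 3817 at day 7 in the knockout arm, and 4327 at day 2 and 2839.7 at day 7 in the flox arm.

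Me1 was the only one of 19 fatty acid synthesis genes that passed the test, while 9 were lower and 0 higher at an unadjusted p below 0.05 (6.35% of all genes were lower) and 14 were lower in both arms. The list's median change was -1.03, against 0.02 over all genes, and its summed signal was 46129 in the knockout arm and 138655 in the flox arm at day 14, against 151188 in the knockout arm and 249737 in the flox arm at day 0. Thrsp, a nuclear protein that promotes lipogenesis, gave 1185 in the knockout arm and 4656 in the flox arm at day 14, against 25848 in the knockout arm and 37093 in the flox arm at day 0. For Thrsp the log2 change was -3.71 ± 0.92 (adjusted p = 0.124). Dgat2, which completes triglyceride synthesis, gave 7007 in the knockout arm and 7109 in the flox arm at day 14, against 13362 in the knockout arm and 14839.7 in the flox arm at day 0. For Dgat2 the log2 change was -0.99 ± 0.23 (adjusted p = 0.113). Both genes were lower at day 14 in each arm without passing the test. Acss2, which makes acetyl-CoA from acetate, had a change of -1.93 ± 0.62 (adjusted p = 0.234).

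Akr1c19, an aldo-keto reductase, gave 427 in the knockout arm and 762 in the flox arm at day 14, against 4512 in the knockout arm and 3341 in the flox arm at day 0, and fell by 2.73 ± 0.33 (adjusted p = 0.0148). Its signal was lower at each later day than at the day before, in both arms. Gsta3, a glutathione S-transferase, gave 1063 in the knockout arm and 3249 in the flox arm at day 14, against 8774 in the knockout arm and 10249 in the flox arm at day 0. Gsta3 fell by 2.34 ± 0.39 (adjusted p = 0.0360). It was the only gene called among 19 on a list of NRF2 and glutathione genes (median change -0.76). Of these, 8 were lower and 0 higher at an unadjusted p below 0.05 (6.35% of all genes were lower). Slc10a1, the sodium-driven bile acid importer of the hepatocyte, gave 3131 in the knockout arm and 5199.6 in the flox arm at day 14, against 12772 in the knockout arm and 12067 in the flox arm at day 0. It fell by 1.62 ± 0.24 (adjusted p = 0.0259), alone among 13 genes of bile acid transport and FXR. Slco1b2, a further hepatocyte importer, gave 5201 in the knockout arm and 9091 in the flox arm at day 14, against 15515 in the knockout arm and 13499 in the flox arm at day 0. For Slco1b2 the log2 change was -1.07 ± 0.30 (adjusted p = 0.172).

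Several further falls are of enzymes whose names lie outside the rule and were chosen after their values were seen. Aldh3a2, which oxidises fatty aldehydes, gave 754.5 in the knockout arm and 1427 in the flox arm at day 14, against 4117 in the knockout arm and 4372 in the flox arm at day 0. It was still at 3399 in the knockout arm and 4164 in the flox arm at day 7, and fell by 2.01 ± 0.24 in all (adjusted p = 0.0148). Mgll, the monoacylglycerol lipase, had the same shape, with 1382 in the knockout arm and 1647 in the flox arm at day 14, 3277 in the knockout arm and 5474 in the flox arm at day 7, and 3706 in the knockout arm and 3959.7 in the flox arm at day 0. Mgll fell by 1.33 ± 0.21 (adjusted p = 0.0285). Pex11a, which divides peroxisomes, fell by 1.59 (adjusted p = 0.0360), Rdh16, a retinol dehydrogenase, by 1.78 (adjusted p = 0.0179), Acsm3, a medium-chain acyl-CoA synthetase, by 1.59 (adjusted p = 0.0209), and Abhd6, a lipid hydrolase, by 1.83 (adjusted p = 0.0424). Ces2e, a carboxylesterase, fell by 2.26 ± 0.38 (adjusted p = 0.0360) and was the only called gene that also differed between the arms (-2.11 ± 0.39, adjusted p = 0.0420), with the larger drop in the knockout arm.

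Usp15, a deubiquitinase, gave 120.4 in the knockout arm and 57.0 in the flox arm at day 14, against 675 in the knockout arm and 661 in the flox arm at day 0, and lay between 504 and 811 at days 2 and 7. It fell by 2.78 ± 0.31 (adjusted p = 0.0142) on this probe set, while its other probe set did not fall in the mean of both arms. Pelo, which frees stalled ribosomes, gave 96.7 in the knockout arm and 82.9 in the flox arm at day 14, against 714 in the knockout arm and 598 in the flox arm at day 0. Pelo fell by 2.67 ± 0.40 (adjusted p = 0.0261). It was low at day 14 without drug too, with 155.1 in MET_KO and 73.2 in MET_FLOX. The day 0 signals there were 498.3 in MET_KO and 472.6 in MET_FLOX. That change of -2.02, which crosses the array sets, compares with 0.21 for Usp15 and -0.11 for Zc3hc1. Zc3hc1, a protein of the nuclear basket, gave 90.7 in the knockout arm and 26.4 in the flox arm at day 14, against 302.5 in the knockout arm and 382 in the flox arm at day 0. Zc3hc1 fell by 2.40 ± 0.40 (adjusted p = 0.0360). All 3 ended under the medians of both day 14 arrays, as did 8 of the 31 genes called lower, a range in which MAS5 signals are less precise.

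The 13 rises were of mixed function. For Tbxas1, Mtmr11, Zc3hav1l, Ube2g2, Timp2, Nid1, Fxr2, Ing2, Sgk1 and Pdia5, both canertinib day 0 signals were the lowest of the 16 arrays. For Itih2, Cxcl14 and Ltf they were not. The call fixes this order in part, and some of the arrays without drug lie in the other array set. Tbxas1, the thromboxane synthase, gave 362.5 in the knockout arm and 507 in the flox arm at day 14, against 16.4 in the knockout arm and 21.8 in the flox arm at day 0. The rise of 3.67 ± 0.55 (adjusted p = 0.0259) was the largest, and it was not steady, since day 7 gave 44.6 in the knockout arm and 115 in the flox arm after 405 in the knockout arm and 286 in the flox arm at day 2. Both day 0 signals were far under their array medians, as they were for 6 of the 13 genes. Mtmr11, of the myotubularin family, gave 365 in the knockout arm and 335 in the flox arm at day 14, against 20.7 in the knockout arm and 22.1 in the flox arm at day 0. Mtmr11 rose by 3.29 ± 0.52 (adjusted p = 0.0308). Its signal was higher at each later day in both arms.

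Among brighter genes, Cxcl14, a chemokine, gave 2425 in the knockout arm and 1125 in the flox arm at day 14, against 377 in the knockout arm and 342.5 in the flox arm at day 0. It rose by 2.15 ± 0.31 (adjusted p = 0.0209), and the 6 earlier arrays all lay at or below 764. It was the only gene called of 18 on a list of cytokines and chemokines. Ltf, lactoferrin of neutrophil granules, gave 2095 in the knockout arm and 1881 in the flox arm at day 14, against 633 in the knockout arm and 419.7 in the flox arm at day 0 (1.91 ± 0.30, adjusted p = 0.0301), with 2487 at day 2 in the knockout arm. The summed signal of the 12 neutrophil genes measured was 134506 in the knockout arm and 16223 in the flox arm at day 14, against 32659 in the knockout arm and 74655 in the flox arm at day 0. Without Lcn2, which hepatocytes also make, the sum of the other 11 was 50843 in the knockout arm and 8606.5 in the flox arm at day 14, against 5323 in the knockout arm and 5854 in the flox arm at day 0. That sum, which holds Ltf itself, was higher at day 14 in both arms, far more so in the knockout arm. The median change of the 12 genes was 1.61 in the knockout arm and 0.05 in the flox arm. The part of neutrophils in the rise of Ltf was not tested.

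Sgk1, a kinase of salt and stress responses, gave 1039 in the knockout arm and 833 in the flox arm at day 14, against 308 in the knockout arm and 297 in the flox arm at day 0, with both arms close at every day. Sgk1 rose by 1.57 ± 0.25 (adjusted p = 0.0341). Without drug, in the other array set, it gave 1053 in MET_KO and 655 in MET_FLOX at day 0. Itih2, a plasma protein that hepatocytes secrete to stabilise hyaluronan, gave 29103 in the knockout arm and 27314 in the flox arm at day 14, against 11968 in the knockout arm and 11997 in the flox arm at day 0. The arms nearly coincided on both days, with a rise of 1.23 ± 0.21 (adjusted p = 0.0360). Pdia5, a disulfide isomerase of the endoplasmic reticulum, rose by 1.49 ± 0.21 (adjusted p = 0.0209). Sgk1, Itih2 and Pdia5 fall outside the rule and were chosen after their values were seen.

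Nid1, which links the sheets of the basement membrane, gave 1296 in the knockout arm and 559 in the flox arm at day 14, against 295 in the knockout arm and 133 in the flox arm at day 0. Nid1 rose by 2.01 ± 0.32 (adjusted p = 0.0301). Timp2, an inhibitor of matrix proteases, gave 449 in the knockout arm and 710.1 in the flox arm at day 14, against 124 in the knockout arm and 98.9 in the flox arm at day 0 (2.20 ± 0.30, adjusted p = 0.0186), and was already at 427 or above on all day 2 and day 7 arrays. Without drug, in the other array set, Timp2 gave 581 in MET_KO and 617 in MET_FLOX at day 0. The other probe sets of Nid1 and Mtmr11 did not rise in the mean of both arms. That of Ube2g2 rose in the mean but not in each arm. All 3 others for Timp2 rose in the mean, and 1 of them in each arm. Ube2g2, a ubiquitin-conjugating enzyme of protein quality control at the endoplasmic reticulum, rose by 2.37 ± 0.26 (adjusted p = 0.0142), Zc3hav1l by 2.95 (adjusted p = 0.0149), Fxr2, an RNA-binding protein, by 1.89 (adjusted p = 0.0483) and Ing2, a chromatin reader, by 1.82 (adjusted p = 0.0398).

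Lists of stellate cell, endothelial and Kupffer cell genes were higher at day 14 by their median, without any gene passing the test. The median was 0.72 for neutrophils. For the remaining cell type lists it ranged from -0.41 (adipocytes) to 0.34 (cholangiocytes and progenitors). Of 26 stellate cell and matrix genes 0 were called, 10 were higher and 0 lower at an unadjusted p below 0.05 (6.36% of all genes were higher by that rule), 19 were higher in both arms, and the median change was 0.54 (0.75 in the knockout arm and 0.43 in the flox arm). Their summed signal was 90143 in the knockout arm and 54680 in the flox arm at day 14, against 43788 in the knockout arm and 50926 in the flox arm at day 0. Col3a1, a fibrillar collagen, gave 1340.3 in the knockout arm and 1177 in the flox arm at day 14, against 608 in the knockout arm and 291 in the flox arm at day 0. For Col3a1 the log2 change was 1.54 ± 0.33 (adjusted p = 0.0898). Col4a2, a basement membrane collagen, had a change of 1.06 ± 0.24 (adjusted p = 0.104).

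Of 17 endothelial genes 0 were called, 8 were higher and 0 lower at an unadjusted p below 0.05 (6.36% higher over all genes), and the median change was 0.43. Stab2, a scavenger receptor of liver sinusoids, gave 1950 in the knockout arm and 1480 in the flox arm at day 14, against 891 in the knockout arm and 668 in the flox arm at day 0. For Stab2 the log2 change was 1.12 ± 0.23 (adjusted p = 0.0796). The list's summed signal was 17342 in the knockout arm and 13812 in the flox arm at day 14, against 11272 in the knockout arm and 9686 in the flox arm at day 0. Of 17 Kupffer cell and macrophage genes 3 were higher and 0 lower without adjustment (median 0.62), with a sum of 74144 in the knockout arm and 40773 in the flox arm at day 14, against 38316 in the knockout arm and 25909 in the flox arm at day 0. In bulk liver, more cells of a type and more RNA per cell cannot be told apart. Their part in the rise of Nid1, Timp2 and Cxcl14 was not tested.

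**Figure D3:**
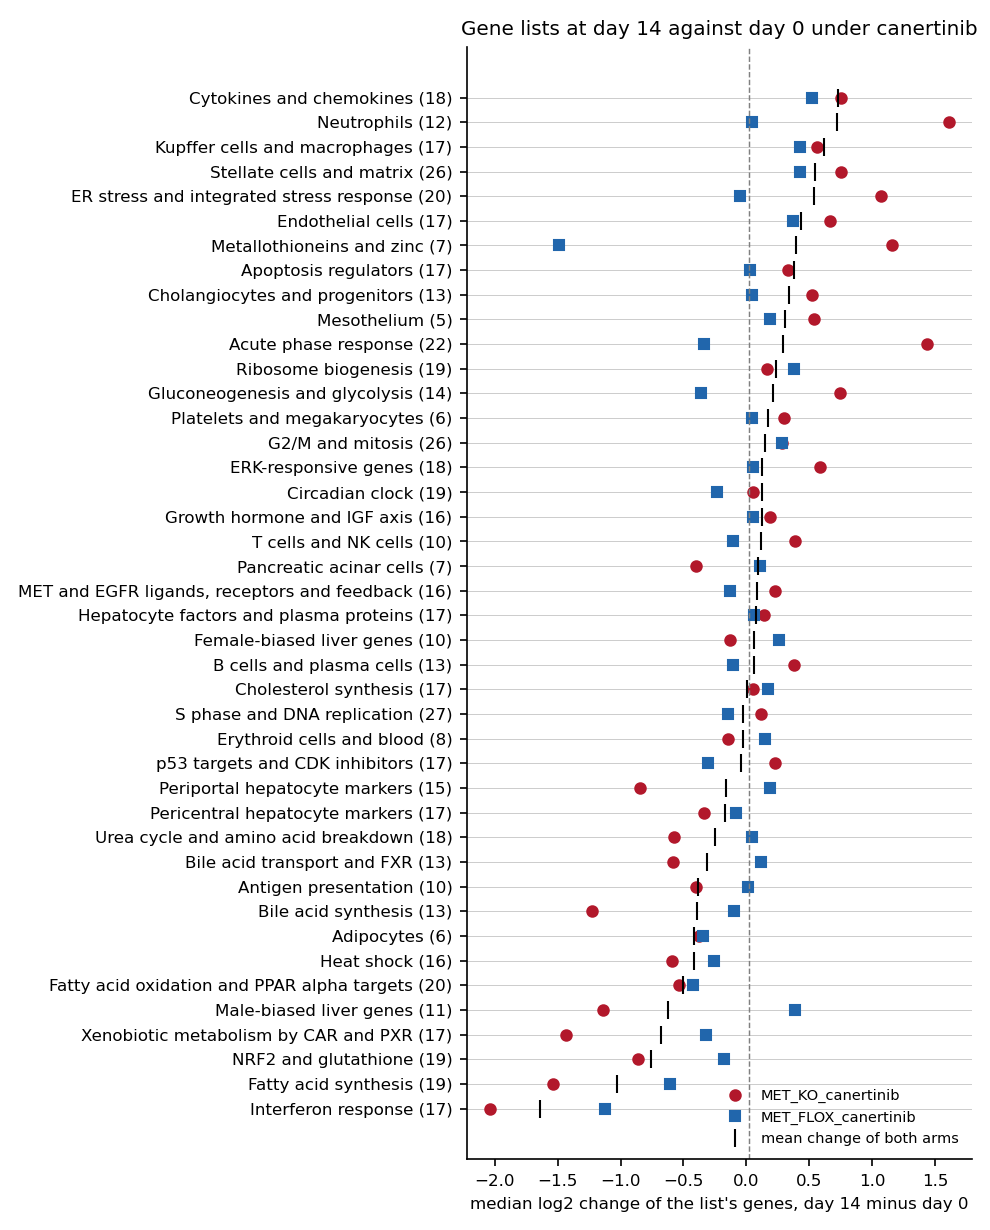
Median log2 change, day 14 minus day 0, of the measured genes of each of 42 lists (number of genes in brackets), as red circles for MET_KO_canertinib, blue squares for MET_FLOX_canertinib and black bars for the mean of both arms, with the dashed line at the median of all genes, 0.02. The interferon list lies farthest to the left in the mean at -1.64, and for metallothioneins and acute phase genes the arms lie on opposite sides of the line.

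Genes of cell division showed no call at day 14. Of 27 genes of S phase 0 were called, with a median change of -0.03, and of 26 genes of mitosis 0, with a median of 0.15, and 1 gene of both lists together passed an unadjusted p below 0.05. Met gave 1321 in the knockout arm and 1264 in the flox arm at day 14, against 1422 in the knockout arm and 1118 in the flox arm at day 0. For Met the log2 change was 0.04 ± 0.24 (adjusted p = 0.976). The position of its probe sets against exon 16 is not known here, so these signals do not check the deletion. Egfr, the target of the drug, gave 7014 in the knockout arm and 12541 in the flox arm at day 14, against 2764 in the knockout arm and 6964 in the flox arm at day 0. The lower day 14 signal lay just above the higher day 0 signal, and the change was not called (1.09 ± 0.44, adjusted p = 0.345). Hgf, the ligand of MET, gave 491 in the knockout arm and 145 in the flox arm at day 14, against 251 in the knockout arm and 257 in the flox arm at day 0, which is up in 1 arm and down in the other (0.08 ± 0.60, adjusted p = 0.978).

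Many more genes moved in 1 arm than in both. By the fold rule, with a change of at least 1 on the log2 scale in an arm and under 0.5 in the other, 470 genes were higher (3.46%) and 607 lower (4.47%) in the knockout arm alone, and 318 were higher (2.34%) and 262 lower (1.93%) in the flox arm alone. Another 120 were higher in the knockout arm and lower in the flox arm by at least 1 in each (0.884%), and 90 the other way round (0.663%). These counts rest on 1 array per arm and day and have no test.

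A limma test of the difference, the day 14 change of the knockout arm minus that of the flox arm, called 148 genes, 45 positive (0.331%) and 103 negative (0.759%), and 1828 had an unadjusted p below 0.05. Of the 148, 51 had moved in opposite directions by the fold rule, 44 in the knockout arm alone and 3 in the flox arm alone. In 95 of the 103 negative calls the knockout arm's day 14 array had the lowest signal of all 16 arrays, and in 33 of the 45 positive calls it had the highest. The call itself fixes this order in part. Only 1 of 4 residual degrees of freedom came from canertinib arrays, and with those arrays alone 10 genes were called, all of them among the 148 (1322 at an unadjusted p below 0.05). Leaving out any 1 of the 4 canertinib arrays of days 2 and 7, which leaves the spread to the arms without drug, gave 243 to 245 calls with the 148 among them, and quantile normalization gave 309.

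The negative calls included enzymes that mature hepatocytes make in quantity. Inmt, which methylates small amines, gave 44.1 in the knockout arm and 9989 in the flox arm at day 14, against 13995 in the knockout arm and 7878 in the flox arm at day 0. The knockout arm's day 14 array lay far under all other arrays, while the flox arm's changed by 0.34, and the difference was -8.21 ± 0.71 (adjusted p = 0.00173). Aox3, an aldehyde oxidase, gave 26.2 in the knockout arm and 12479 in the flox arm at day 14, against 5383 in the knockout arm and 13509 in the flox arm at day 0, a difference of -6.88 ± 0.45 (adjusted p = 0.000534). Ces1d, a carboxylesterase, gave 129 in the knockout arm and 6701.5 in the flox arm at day 14, against 9565 in the knockout arm and 7459.9 in the flox arm at day 0. For Ces1d the difference between the arms was -5.89 ± 0.45 (adjusted p = 0.000811). For each of these, the knockout arm at day 7 was still within the range of the other arrays, at 13814 for Inmt, 5844 for Aox3 and 4332 for Ces1d.

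Acaa1b, a thiolase of peroxisomal fatty acid oxidation, gave 257 in the knockout arm and 24386 in the flox arm at day 14, against 21202 in the knockout arm and 22096 in the flox arm at day 0. For Acaa1b the difference between the arms was -6.42 ± 0.64 (adjusted p = 0.00263). Car3, a carbonic anhydrase of hepatocytes and fat cells, gave 56.0 in the knockout arm and 18508 in the flox arm at day 14, against 30739 in the knockout arm and 49168 in the flox arm at day 0. Of the 3 other probe sets of Car3, 2 fell in the mean of both arms and 1 in each arm. On the probe set given here Car3 was lower at day 14 in both arms, and the change differed by -7.33 ± 0.65 (adjusted p = 0.00208). Sult2a8, a sulfotransferase (-6.10 ± 0.78, adjusted p = 0.00917), Ces1f, a carboxylesterase (-5.05 ± 0.57, adjusted p = 0.00553), and Pbld2 (-4.57 ± 0.37, adjusted p = 0.00119) had the same shape, with the flox arm's change within 0.2 of 0.

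Gsta4, a glutathione S-transferase that clears products of lipid peroxidation, moved in opposite directions, with 40.2 in the knockout arm and 2056 in the flox arm at day 14, against 1359 in the knockout arm and 683 in the flox arm at day 0. For Gsta4 the difference between the arms was -6.18 ± 0.37 (adjusted p = 0.000534). So did Ppp1r3c, which directs a phosphatase to glycogen, with 62.3 in the knockout arm and 2367 in the flox arm at day 14, against 1578.5 in the knockout arm and 903.5 in the flox arm at day 0. For Ppp1r3c the difference between the arms was -5.72 ± 0.40 (adjusted p = 0.000534). Cyp7a1, the rate-limiting enzyme of bile acid synthesis, gave 415 in the knockout arm and 3216 in the flox arm at day 14, against 3577 in the knockout arm and 654 in the flox arm at day 0. The difference of -5.33 ± 1.13 missed the threshold (adjusted p = 0.0655). Abcb11, the bile salt export pump, gave 1214.5 in the knockout arm and 11900.3 in the flox arm at day 14, against 8375 in the knockout arm and 8077 in the flox arm at day 0 (-3.33 ± 0.51, adjusted p = 0.0194), and was chosen after its values were seen.

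**Figure D4:**
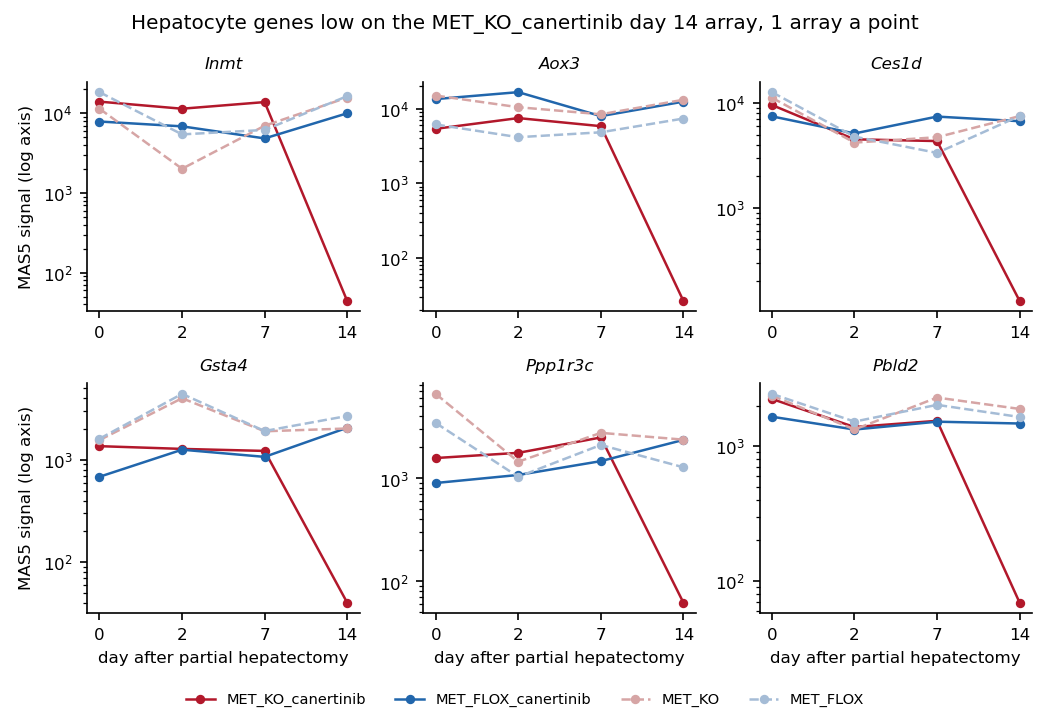
MAS5 signal on a log axis, against the day after partial hepatectomy (evenly spaced), of the 6 genes with the smallest p among negative differences, in the 4 arms, 1 array a point. In each panel the red point of MET_KO_canertinib at day 14 lies far below the 15 other arrays, at 44.1 for Inmt and 26.2 for Aox3.

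By list, 3 of 17 genes of xenobiotic metabolism differed negatively and 0 positively, where 0.759% of all genes differed negatively and 0.331% positively. The list's median change was -1.43 in the knockout arm and -0.32 in the flox arm, against 0.04 and 0.03 over all genes. Aldh1a1, a retinaldehyde dehydrogenase on it, gave 4208 in the knockout arm and 16510.5 in the flox arm at day 14, against 21576 in the knockout arm and 25199 in the flox arm at day 0. For Aldh1a1 the difference between the arms was -1.74 ± 0.33 (adjusted p = 0.0438). The other 2 were Cyp2c37 (-3.49) and Cyp3a11 (-3.88), drug-metabolising cytochromes, named after their values were seen. On the NRF2 and glutathione list 3 of 19 differed negatively, Gsta4, Gsta2 (-4.31, likewise named afterwards) and Ephx1, the microsomal epoxide hydrolase (-2.09 ± 0.39, adjusted p = 0.0425). Of 18 genes on the urea cycle and amino acid list 2 differed negatively and 0 positively. Otc, a urea cycle enzyme, differed by -2.68 ± 0.44 (adjusted p = 0.0254) and Gpt, alanine aminotransferase, by -2.64 ± 0.46 (adjusted p = 0.0340). Cyp2f2, a periportal cytochrome, gave 2542 in the knockout arm and 36644 in the flox arm at day 14, against 21751 in the knockout arm and 26451 in the flox arm at day 0. For Cyp2f2 the difference between the arms was -3.56 ± 0.34 (adjusted p = 0.00233).

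The positive calls included acute phase genes, which hepatocytes raise in response to inflammatory cytokines. Of 22 on that list 7 differed positively and 0 negatively, where 0.331% of all genes differed positively and 0.759% negatively. The list's median change was 1.44 in the knockout arm and -0.34 in the flox arm, against 0.04 and 0.03 over all genes. Serpina3n, a protease inhibitor, gave 54757 in the knockout arm and 4119 in the flox arm at day 14, against 15104 in the knockout arm and 45531 in the flox arm at day 0. High and low thus changed places between the arms, with a difference of 5.32 ± 0.37 (adjusted p = 0.000534). Lcn2, which withholds iron from bacteria, gave 83663 in the knockout arm and 7616 in the flox arm at day 14, against 27336 in the knockout arm and 68801 in the flox arm at day 0. For Lcn2 the difference between the arms was 4.79 ± 0.60 (adjusted p = 0.0090). Hamp, which encodes hepcidin, the hormone that limits iron export, gave 44613 in the knockout arm and 3275 in the flox arm at day 14, against 16514 in the knockout arm and 52892 in the flox arm at day 0. For Hamp the difference between the arms was 5.44 ± 0.57 (adjusted p = 0.00383).

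For Serpina3n and Lcn2 the highest signals of the 16 arrays were those of the knockout arm at day 14, followed by those of the flox arm at day 0. For Hamp the array that stood apart was the flox arm's at day 14, with the lowest signal of the 16, while the knockout arm's day 14 signal lay below its own day 7 signal of 52463. That flox arm array is also the one with the highest Gapdh ratio, whose part in this difference was not tested. In the flox arm the signal of Serpina3n was 45531, 21206, 9871 and 4119 at days 0, 2, 7 and 14, lower at each step. The knockout arm's values at the same days were 15104, 34508.5, 21961 and 54757. The other 4 genes, named after their values were seen, were Steap4, a metal reductase (4.38), Saa3, a serum amyloid A (4.17), Apcs, serum amyloid P (2.63), and Orm1, an orosomucoid (2.53).

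Tifa, an adaptor between receptors and NF-kappa-B, gave 15936 in the knockout arm and 1155 in the flox arm at day 14, against 988 in the knockout arm and 4393 in the flox arm at day 0. For Tifa the difference between the arms was 5.90 ± 0.57 (adjusted p = 0.00233). Mt2, a metallothionein that binds zinc and copper, gave 59345 in the knockout arm and 7606.5 in the flox arm at day 14, against 2234.5 in the knockout arm and 47711 in the flox arm at day 0. For Mt2 the difference between the arms was 7.37 ± 1.27 (adjusted p = 0.0323). Mt1, its neighbour in function, gave 74344 in the knockout arm and 9595.5 in the flox arm at day 14, against 3285 in the knockout arm and 52356.5 in the flox arm at day 0, and missed the threshold. For Mt1 the difference between the arms was 6.94 ± 1.67 (adjusted p = 0.0920). In both arms their signals also differed between days 2 and 7. Mt2 gave 25798 at day 2 and 11135.5 at day 7 in the knockout arm, and 4462 at day 2 and 22124 at day 7 in the flox arm. Of 7 genes of metallothioneins and zinc transport, 3 went up in the knockout arm and down in the flox arm by at least 1. Over all genes 0.884% did so, and Mt2 was the only one of the 7 called.

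**Figure D5:**
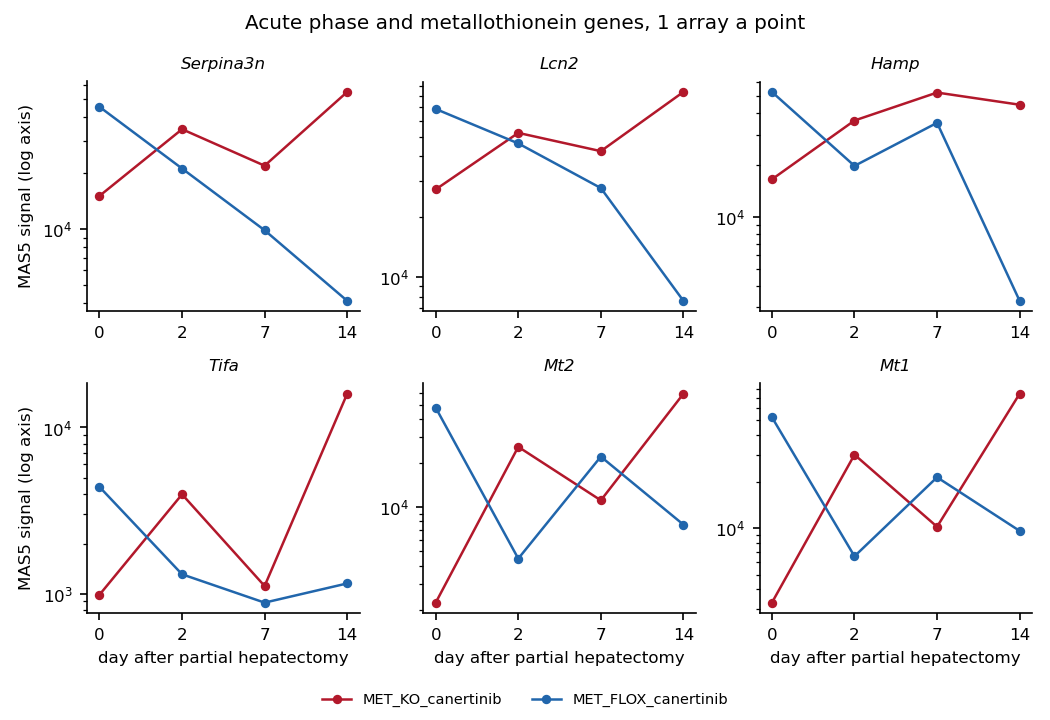
MAS5 signal on a log axis, against the day after partial hepatectomy (evenly spaced), of 4 genes called for a positive difference that are named in the text (Serpina3n, Lcn2, Hamp, Tifa) and of the metallothioneins Mt2 and Mt1, in MET_KO_canertinib (red) and MET_FLOX_canertinib (blue), 1 array a point. In each panel the knockout arm is below the flox arm at day 0 and above it at day 14.

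Among genes past the fold rule in the knockout arm alone, the largest change upwards was that of Igfbp1, a secreted binding protein of insulin-like growth factors known to be induced by fasting and injury. It gave 67308 in the knockout arm and 7604 in the flox arm at day 14, against 543 in the knockout arm and 9265 in the flox arm at day 0. The difference was 7.20 ± 1.58 and missed the threshold (adjusted p = 0.0727), with signals that swung from day to day in both arms. Cd14, a receptor for bacterial lipopolysaccharide, gave 15722 in the knockout arm and 1177.5 in the flox arm at day 14, against 979 in the knockout arm and 870.4 in the flox arm at day 0. For Cd14 the difference between the arms was 3.55 ± 1.02 (adjusted p = 0.153). Il33, an alarmin cytokine, gave 1145 in the knockout arm and 228 in the flox arm at day 14, against 34.9 in the knockout arm and 224.5 in the flox arm at day 0. For Il33 the difference between the arms was 4.49 ± 1.33 (adjusted p = 0.162). Thbd, thrombomodulin of the vessel wall, was called, with 1841 in the knockout arm and 382 in the flox arm at day 14, against 141 in the knockout arm and 500.2 in the flox arm at day 0. For Thbd the difference between the arms was 3.94 ± 0.56 (adjusted p = 0.0156).

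Neutrophil genes were bright on the same array. Of the 12 measured, 1 was called for the difference, Lcn2, which hepatocytes also make, and the list's median change was 1.61 in the knockout arm and 0.05 in the flox arm. S100a9, a granule alarmin, gave 10668 in the knockout arm and 878 in the flox arm at day 14, against 120.1 in the knockout arm and 601 in the flox arm at day 0. For S100a9 the difference between the arms was 5.76 ± 1.49 (adjusted p = 0.116). Of 20 genes of ER stress, 9 were higher by the fold rule in the knockout arm alone, against 3.46% of all genes, and the list's median change was 1.07 in the knockout arm and -0.05 in the flox arm. None of those 9 was called for the difference. The 1 gene of the list that was called, Dnajb9, a chaperone of the endoplasmic reticulum named after its values were seen, was not past the fold rule, with changes of 0.75 in the knockout arm and -1.34 in the flox arm (difference 2.09). The part of these cells and responses in the differences above was not tested.

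Changes in the flox arm alone seldom passed the test of the difference. Enho, which encodes the secreted peptide adropin, was the largest, with 58.6 in the knockout arm and 2345 in the flox arm at day 14, against 45.8 in the knockout arm and 137 in the flox arm at day 0. For Enho the difference between the arms was -3.68 ± 0.52 (adjusted p = 0.0148). Its flox arm signal was 925 at day 2 and 1106 at day 7, so it was higher at each later day. Trmt11, a tRNA methyltransferase subunit, gave 287 in the knockout arm and 361 in the flox arm at day 14, against 328 in the knockout arm and 30.0 in the flox arm at day 0, so that the flox arm's day 0 array stood apart from the other 3 (-3.22 ± 0.62, adjusted p = 0.0492). Downwards, Spty2d1, a histone chaperone, gave 734 in the knockout arm and 61.6 in the flox arm at day 14, against 590.0 in the knockout arm and 641 in the flox arm at day 0. For Spty2d1 the difference between the arms was 3.39 ± 0.58 (adjusted p = 0.0323). Rgs16, a regulator of G protein signalling, had the largest change downwards and was not called (4.60 ± 1.92, adjusted p = 0.344). In that arm it gave 61.5 at day 14 and 63.9 at day 2, against 1172 at day 7 and 1634 at day 0.

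Low signals were common among these genes. In 214 of the 318 genes higher in the flox arm alone the day 0 signal was under its array's median, and in 166 of the 262 lower ones the day 14 signal was. For the knockout arm alone the counts were 189 of 470 higher and 237 of 607 lower. Among the 103 negative calls of the difference, 41 had a day 14 signal in the knockout arm under that array's median.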

How the data were processed

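Liver RNA of 16 arrays was used, 4 of them (days 14 and 0 of both canertinib arms) for the comparison. The authors deposited 1 linear intensity for each probe set, computed with MAS5 per the submitters' processing notes, with no version given in the sources used here. The mean of each array without its lowest and highest 2% was 500, a scaling already in the deposited intensity values. From the authors' linear values, log2 of the signal plus 16 was computed here. The number of arrays, 1 per arm and day, limits the precision.

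Of 45101 probe sets, 64 controls were left out, and the 34945 with 1 annotated gene were used, not the 932 with several or the 9160 with none. By gene ID, 34741 matched RefSeq. Probe sets above their array's median on at least 4 of 16 arrays were kept (22315), and each gene was taken from its probe set of highest mean (13575 genes).

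Genes were fitted with limma 3.58.1 in R 4.3.3 over all 16 arrays, with arm as the block that pairs day 14 with day 0, separate day terms with and without canertinib, and empirical Bayes variances that follow the mean signal (6 residual degrees of freedom). The difference between arms had terms for MET_KO_canertinib at days 0 and 14 and 4 residual degrees of freedom. Two-sided p-values were adjusted by Benjamini-Hochberg over 13575 genes and called below 0.05. The code was tested on simulated data. The arms compared, the 42 gene lists (773 genes, 624 measured), the tests and the rule for naming genes were chosen with earlier results of these data known. The rule names the 10 largest rises and falls among called genes brighter than the mean array median, up to 4 genes of smallest p per list, the 6 largest each way in 1 arm alone or in opposite directions, the 6 of smallest p each way for the difference, and Met, Hgf and Egfr. Figures were drawn with Python 3.11.15 and matplotlib 3.10.9. Alternatives covered the number added before the log, the filter, the scaling, the probe set rule, the arrays and terms in the fit, and each canertinib array left out.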

Additional observations from a re-analysis of the deposited data

Results flagged for a closer look

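The results below stand out because the day 14 change differed between MET_KO_canertinib and MET_FLOX_canertinib by a test of that difference: 45 genes with a positive and 103 with a negative difference, given as the log2 change of MET_KO_canertinib minus that of MET_FLOX_canertinib. Each arm had 1 array per day.

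Positive among the named genes were Mt2 (7.37), Tifa (5.90), Hamp (5.44), Serpina3n (5.32) and Lcn2 (4.79), the metallothionein, signalling and acute phase genes described above. Lsg1, a GTPase of ribosome assembly (4.43), Thbd (3.94), Ccnjl, a cyclin-like gene (3.83), and Spty2d1 (3.39) were positive too.

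Negative differences among the genes named in the text included Inmt (-8.21), Car3 (-7.33), Aox3 (-6.88), Acaa1b (-6.42), Gsta4 (-6.18), Sult2a8 (-6.10), Ces1d (-5.89), Ppp1r3c (-5.72), Ces1f (-5.05) and Pbld2 (-4.57), all with their lowest signal of the 4 arrays at day 14 in MET_KO_canertinib. Further hepatocyte enzymes were Cyp2f2 (-3.56), Akr1c6, a steroid-reducing enzyme (-2.93), Otc (-2.68), Gpt (-2.64), Ephx1 (-2.09) and Aldh1a1 (-1.74). Wdr76 (-5.58), Wdr24 (-5.31) and Trmt1l (-5.10) went in opposite directions, each with its dimmer signals under the array medians. Enho (-3.68) and Trmt11 (-3.22) were higher at day 14 in MET_FLOX_canertinib alone.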

How the results depend on the processing

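The 44 genes called at day 14 came to 38 to 63 under other added numbers, filters, scalings and probe set rules. They came to 0 in the 8 canertinib arrays alone (1189 at an unadjusted p below 0.05) and in the 4 arrays of days 0 and 14 alone (871), to 82 with no replicate block (no arm block, 42 of the 44 kept), to 11 with arm and day over all arms (2 of the 44 kept) and to 27 when the array set was added (19 kept). Leaving out 1 canertinib array gave 0 (without MET_KO_canertinib at day 0) to 676 (without MET_FLOX_canertinib at day 14). The 5 interferon list genes came to 4 to 7, except 0 in the 8 or the 4 arrays alone and in both fits over all arms, and leaving out 1 array gave 0 to 10. The 148 differences between arms came to 105 to 188, except 309 with quantile normalization and 10 in the canertinib arrays alone, and leaving out 1 array of day 2 or 7 gave 243 to 245. The cause was not tested, beyond the fewer arrays that some of these fits hold. Where a canertinib array of day 0 or day 14 was left out, that day rested on the other arm's array alone. Counts by the fold rule varied within 1.5 times: 238 to 351 in both arms (306 as reported), 970 to 1203 in MET_KO_canertinib alone (1077) and 479 to 662 in MET_FLOX_canertinib alone (580). Of the values of named genes called at day 14 under these settings, 259 kept their call, 140 lost it and 0 changed sign, and for named differences the counts were 139, 5 and 0. The median of the interferon list ranged from -2.07 to -0.87 over 20 settings and kept its sign in all. What limits these data is 1 array per arm and day: no spread between livers was measured, dim probe sets add noise, and the steps between array sets fall on the arms without drug.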

Other observations

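Several lists with no gene called for the mean change had members near the threshold, given here with their mean log2 changes. Jchain, which joins secreted immunoglobulin, gave 2125 in the knockout arm and 645 in the flox arm at day 14, against 157 in the knockout arm and 152 in the flox arm at day 0 (2.80 ± 0.60, adjusted p = 0.0918). Dnaja1, a co-chaperone of HSP70, gave 1631 in the knockout arm and 3377 in the flox arm at day 14, against 5866 in the knockout arm and 5509 in the flox arm at day 0 (-1.27 ± 0.28, adjusted p = 0.0921). It was the nearest to the threshold of 16 heat shock genes, and the list's median change was -0.42. Of the 16, 5 were lower and 0 higher at an unadjusted p below 0.05 (6.35% of all genes were lower). Foxa3, a transcription factor of hepatocytes, had the same change in both arms, 1.27, with 1382 in the knockout arm and 2879 in the flox arm at day 14, against 562 in the knockout arm and 1188 in the flox arm at day 0 (1.27 ± 0.29, adjusted p = 0.108). Slc2a2, the glucose transporter of hepatocytes, gave 508 in the knockout arm and 2794 in the flox arm at day 14, against 6840.3 in the knockout arm and 5198 in the flox arm at day 0, with a mean change of -2.30 ± 0.52 (adjusted p = 0.102) and a difference between the arms of -2.82 ± 0.57 (adjusted p = 0.0588).

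Wee1, a kinase that restrains mitosis and follows the circadian clock, gave 58.8 in the knockout arm and 46.2 in the flox arm at day 14, against 515 in the knockout arm and 290.4 in the flox arm at day 0 (-2.56 ± 0.82, adjusted p = 0.235). Noct, a further rhythmic gene, gave 3189 in the knockout arm and 2651 in the flox arm at day 14, against 1162 in the knockout arm and 1287 in the flox arm at day 0 (1.24 ± 0.41, adjusted p = 0.249). The hour at which livers were taken is not given in the labels.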
